A study of Mus musculus with 3 samples.

Results

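The genes described here encode the contractile machinery of heart and smooth muscle together with its non-muscle relatives, and were taken from a list of 45 gene symbols. All 45 were among the 23397 genes of the deposited tables. The expression value of a gene is its FPKM, the number of sequenced fragments divided by transcript length and library depth, summed over all transcript entries of the gene. Of the 45 genes, 23 reached 1 FPKM in any library and are called expressed, as were 11080 of all genes. The list holds 32 genes of the sarcomere and the cardiomyocyte, 6 genes of smooth muscle and 7 non-muscle genes.

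Muscle contracts when myosin thick filaments pull on actin thin filaments. In the striated muscle of the heart both are stacked into sarcomeres, held at the Z-disc and the M-line, and troponin and tropomyosin on the thin filament let calcium switch the pull on. Smooth muscle has no sarcomeres and is switched on through phosphorylation of the myosin light chain, and all other cells use non-muscle myosins, tropomyosins and actinins for shape and movement. Heart muscle and the endothelium that gives rise to blood come from neighbouring mesoderm, and Scl, the transcription factor also named Tal1, is required there for blood to form.

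Mouse embryonic stem cells of 3 genotypes, each with a single RNA-seq library, were compared: wild type (WT), a knockout of Scl (SclKO), and a line labelled as a knockout of both Gata1 and Gata2 (Gata12KO). Stem cells of each genotype were maintained with serum and LIF, cultured in a pre-differentiation medium that also held LIF, and then grown as embryoid bodies, floating aggregates of differentiating cells, with transferrin and ascorbic acid. At day 4.75 the aggregates were dissociated, and cells positive for Tie2 and CD31 and negative for CD41 were sorted as endothelial cells. Whether each genotype comes from 1 clone or several is not stated. With 1 library in each group there was no replicate error and no test could be made. Bounds printed after a value are the confidence bounds deposited with it, summed where a gene has several entries. For most genes of 1 entry they lie 2 Poisson standard deviations away. For genes of several entries, such as Atp2a2 and Tpm1, they can be wider. None covers the spread between replicates.

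The bounds imply a depth of 31.6M fragments (M, mega) for WT, 28.3M for SclKO and 50.3M for Gata12KO. The targeted gene Tal1 stood at 51.0, 1.59 and 38.7 FPKM in these libraries. Gata1 stood at 4.64, 0 and 5.66 FPKM and Gata2 at 12.0, 5.81 and 44.9 FPKM, so neither was below WT in the Gata12KO library. It is therefore named the library labelled Gata12KO below, and every direction drawn from it rests on that label. A value sums over all exons, which means that loss of part of the gene could be missed. Of 15 listed endothelial markers, 14 reached 1 FPKM in SclKO and all 15 did so in both other libraries. The 15 include Tek (Tie2) and Pecam1 (CD31), on which the cells were sorted.

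Calls of higher and lower required that a gene was expressed, that its log2((FPKM + 1)/(FPKM + 1)) was at least 1 in size (2-fold), and that its deposited bounds in the pair of libraries were apart. Calls are descriptions of 3 libraries. Another setting is named beside a call that it ends, mainly TPM, in which each library is rescaled to the same summed FPKM. In SclKO against WT, 3 of the 23 expressed contractile genes were higher, namely Tnni1, Tpm1 and Myh10, against 2.12% of all expressed genes. In the same comparison 1 was lower, Cox7a1, against 4.24% of all expressed genes. In the library labelled Gata12KO against WT none was higher, against 0.767% of all expressed genes, and 5 were lower, namely Tnni1, Tpm2, Acta2, Myl9 and Cnn2, against 3.75%. In the library labelled Gata12KO against SclKO 1 was higher, Cox7a1, against 3.38%, and 8 were lower, namely Tnnt2, Tnni1, Tpm1, Tpm2, Acta2, Myl9, Des and Cnn2, against 3.75%. The counts of 3, 5 and 8 are 13.0%, 21.7% and 34.8% of the expressed contractile genes, and a single gene is 4.35% of them, near the share of all genes. The comparisons share libraries and are not independent of each other, and no test over the list was made. Genes of the working sarcomere (titin, cardiac myosin heavy chains, myosin binding protein C) stood near 0 in all 3 libraries, so that the calls lay in thin filament, smooth muscle and non-muscle genes and in Cox7a1. In RNA of bulk sorted cells, fewer cells of a type and less RNA per cell cannot be told apart.

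**Figure D1:**
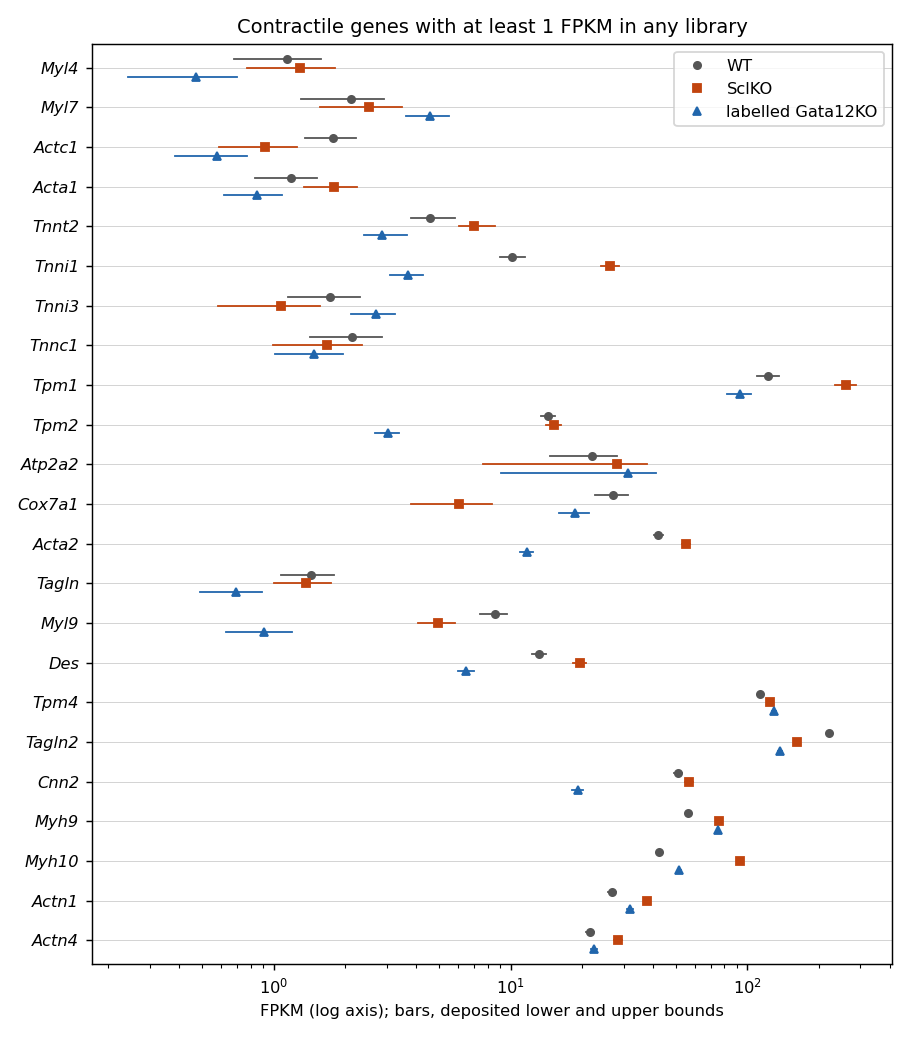
FPKM (log axis) of the 23 contractile genes with at least 1 FPKM in any library, 1 symbol for each library, with the deposited bounds as bars. Tpm2, Acta2, Myl9 and Cnn2 lie lower in the library labelled Gata12KO than in both others, and Tnni1 is ordered SclKO, WT, labelled Gata12KO.

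Promoters of the contractile genes are shown because several of the called genes are textbook targets of serum response factor, which binds the CArG box. RefSeq windows (GRCm38.p6) running from 250 bases before to 50 bases after a start were given for 41 of the 45 genes, 50 windows in all; Myh11, Tagln, Tcap and Atp2a2 had none. The 250 bases before the start of 5 genes follow, with a CArG box (C and C, then a run of exactly 6 bases that are each A or T, then G and G) in capitals. Shorter runs between C and C and G and G occur in all 5 sequences and were not counted. Myl9 is at chr2:156775214-156775463 on the forward strand, Cnn2 at chr10:79988350-79988599 on the forward strand, Acta2 at chr19:34255374-34255623 on the reverse strand, Tpm1 at chr9:67049214-67049463 on the reverse strand and Actc1 at chr2:114052876-114053125 on the reverse strand.
Myl9: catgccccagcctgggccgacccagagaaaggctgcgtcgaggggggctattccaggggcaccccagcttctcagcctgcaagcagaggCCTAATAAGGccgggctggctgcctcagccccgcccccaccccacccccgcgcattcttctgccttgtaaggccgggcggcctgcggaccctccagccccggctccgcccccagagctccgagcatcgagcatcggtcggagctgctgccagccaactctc
Cnn2: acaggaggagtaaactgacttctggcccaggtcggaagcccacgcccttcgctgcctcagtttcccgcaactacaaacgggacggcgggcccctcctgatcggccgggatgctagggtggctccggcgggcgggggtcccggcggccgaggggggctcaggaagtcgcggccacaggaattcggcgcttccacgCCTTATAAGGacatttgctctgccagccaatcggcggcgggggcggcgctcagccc
Acta2: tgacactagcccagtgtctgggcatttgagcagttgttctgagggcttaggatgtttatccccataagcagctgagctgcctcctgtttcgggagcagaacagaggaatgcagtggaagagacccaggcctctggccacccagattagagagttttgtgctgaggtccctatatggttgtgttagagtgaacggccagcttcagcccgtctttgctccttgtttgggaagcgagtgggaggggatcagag
Tpm1: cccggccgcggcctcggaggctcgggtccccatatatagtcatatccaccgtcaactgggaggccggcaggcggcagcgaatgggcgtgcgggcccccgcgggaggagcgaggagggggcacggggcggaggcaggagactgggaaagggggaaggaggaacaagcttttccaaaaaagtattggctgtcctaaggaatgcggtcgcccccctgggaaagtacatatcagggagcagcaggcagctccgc
Actc1: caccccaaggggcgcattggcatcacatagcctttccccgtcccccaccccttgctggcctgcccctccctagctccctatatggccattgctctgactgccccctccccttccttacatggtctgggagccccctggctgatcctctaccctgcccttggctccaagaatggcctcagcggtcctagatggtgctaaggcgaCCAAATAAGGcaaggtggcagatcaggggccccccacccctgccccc

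A CArG box lay 161 bases before the RefSeq start in Myl9 (CCTAATAAGG), 56 bases before it in Cnn2 (CCTTATAAGG) and 47 bases before it in Actc1 (CCAAATAAGG). Distances count from that annotated start, and where transcription begins in these cells was not measured. The windows of Acta2 and Tpm1 held no CArG box as defined, which says nothing about binding there. The Acta2 window holds ccctatatgg and ccttgtttgg, each a single base away from that pattern. Sites that depart from the pattern by a base were not counted in any window. Over all windows of the list 10 of 50 held a CArG box (20%), in 9 genes, beside 1.63% of all 32851 promoter windows in the table. These genes were Acta1, Actc1, Cnn2, Ldb3, Myl3, Myl7, Myl9, Myom1 and Nebl, and the 2 windows of Ldb3 share a single site. Of the 10 genes called in any comparison 2 held an exact CArG box, Myl9 and Cnn2. The other 7 genes with a CArG box were called in no comparison, and 4 of them were under 1 FPKM in every library. Searched on both strands, the letters CATTCC were in 16 of the 50 windows (32%, beside 14.7% of all windows), GATAA in 18 (36%, beside 25.4%), CAGCTG in 15 (30%, beside 16.3%), TATAAA in 8 (16%, beside 13.6%) and CAGATG in 3 (6%, beside 17.2%). None of the CArG boxes overlapped another of these motifs. A match of letters is a description and shows no binding.

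Of the troponins on the list, 2 are forms of troponin I, the inhibitory subunit that holds the thin filament off. Tnni1, the slow skeletal and fetal form (chromosome 1, 137695998 to 137707566 on mm9, forward strand), stood at 10.2 FPKM (bounds 8.99 to 11.5) in WT, 26.3 (24.2 to 28.6) in SclKO and 3.68 (3.11 to 4.29) in the library labelled Gata12KO. SclKO was thus highest and the library labelled Gata12KO lowest, with no overlap of bounds between any pair. Tnni1 was 2.59-fold higher in SclKO than in WT (2.11 to 3.18 from the bounds) and 2.77-fold lower in the library labelled Gata12KO than in WT (2.10 to 3.68). It was 7.17-fold lower in that library than in SclKO (5.64 to 9.18). The call against WT in the library labelled Gata12KO was lost with a pseudocount of 5 (log2 ratio -0.81), under TPM (-0.70) and with the trend over transcript length removed (-0.81). Of its 2 entries, 1 held nearly the whole value in every library.

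Tnni3, the adult cardiac troponin I, stood at 1.73 FPKM (1.15 to 2.32) in WT, 1.07 (0.582 to 1.57) in SclKO and 2.69 (2.12 to 3.26) in the library labelled Gata12KO. It was called in no comparison as reported, although the bounds of SclKO and the library labelled Gata12KO were apart. Against SclKO it was higher in that library with a pseudocount of 0.1 (1.25), under TPM (1.49), with rescaling over transcripts of 300 nt or longer (1.29) and with the length trend removed (1.09). By value its libraries have the reverse order of those of Tnni1, with the bounds of WT overlapping both others. Within a library, Tnni1 stood at 5.87 times the FPKM of Tnni3 (bounds 3.87 to 9.98) in WT, 24.5 times (15.4 to 49.2) in SclKO and 1.37 times (0.954 to 2.02) in the library labelled Gata12KO. Such a ratio within a library does not depend on how libraries are scaled, and the bounds of the 3 ratios do not overlap. The pairs of genes used for ratios were chosen after their values were seen.

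Tnnt2, cardiac troponin T, which ties troponin to tropomyosin, stood at 4.57 FPKM (3.80 to 5.85) in WT, 7.03 (6.04 to 8.59) in SclKO and 2.86 (2.40 to 3.64) in the library labelled Gata12KO. It was lower in that library than in SclKO, by 2.45-fold (1.66 to 3.58), and the bounds of every pair were apart. That call was lost with a pseudocount of 5 (-0.61), under TPM (-0.41) and with the length trend removed (-0.87). Of its 9 entries a different one held the value in WT (4.55 FPKM) than in SclKO and the library labelled Gata12KO (7.03 and 2.86), so the split of Tnnt2 between entries is not used, and taking 1 entry alone turned the ratio of that library against WT from -0.53 to 1.92. Tnnc1, the calcium-binding troponin C of heart and slow muscle, stood at 2.14, 1.68 and 1.48 FPKM in WT, SclKO and the library labelled Gata12KO, with overlapping bounds in every pair.

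Tropomyosins are the coiled rods that lie along actin, and Tpm1 had the highest FPKM of the thin filament genes of the list in each library. Tpm1 (chromosome 9, 66870400 to 66897020, reverse strand) stood at 123 FPKM (109 to 136) in WT, 261 (235 to 288) in SclKO and 93.1 (82.0 to 104) in the library labelled Gata12KO. It was 2.13-fold higher in SclKO than in WT (1.73 to 2.63) and 2.80-fold lower in the library labelled Gata12KO than in SclKO (2.25 to 3.51). Both calls were lost under TPM, at log2 ratios of 0.96 and -0.66. Tpm2 (chromosome 4, 43527584 to 43536260, reverse strand), the beta tropomyosin of skeletal and smooth muscle, stood at 14.4 FPKM (13.5 to 15.4) in WT, 15.3 (14.2 to 16.3) in SclKO and 3.04 (2.68 to 3.39) in the library labelled Gata12KO. Only the last library stood apart among the 3, 4.76-fold lower than WT (3.97 to 5.75) and 5.03-fold lower than SclKO (4.19 to 6.09). Both Tpm2 calls were kept under all 7 alternatives that could end a call.

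Tpm4, a tropomyosin of non-muscle cells, gives a reference within each library for the 2 muscle tropomyosins, at 113 FPKM in WT, 125 in SclKO and 130 in the library labelled Gata12KO. Tpm1 stood at 1.08 times the FPKM of Tpm4 (0.942 to 1.23) in WT, 2.08 times (1.83 to 2.36) in SclKO and 0.718 times (0.622 to 0.818) in the library labelled Gata12KO. Tpm2 stood at 0.127 times Tpm4 (0.116 to 0.139) in WT, 0.122 (0.111 to 0.134) in SclKO and 0.0234 (0.0203 to 0.0266) in the library labelled Gata12KO. The ratios of Tpm1 were apart in all 3 libraries, while those of Tpm2 set the library labelled Gata12KO apart from the other two. Of 50-base stretches of Tpm4 transcripts, 12.1% also occur in the gene model Gm7809, so part of its reads could not be told apart from that copy.

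Tpm1 makes many tropomyosins from 1 gene, long ones from an upstream first exon and short, non-muscle ones from a first exon farther downstream. The files hold 10 Tpm1 entries, whose shares are an estimate by Cufflinks from reads that mostly fit several entries. The 6 entries with the upstream first exon summed to 80.1 FPKM (71.7 to 88.6) in WT, 236 (219 to 255) in SclKO and 66.9 (59.8 to 73.9) in the library labelled Gata12KO. The 4 entries with the downstream first exon, 5342 bases on, summed to 42.4 FPKM (37.6 to 47.2) in WT, 24.1 (15.7 to 32.9) in SclKO and 26.2 (22.2 to 30.1) in the library labelled Gata12KO. The upstream sum was thus 2.95 times the WT value in SclKO, while the downstream sum was 1.76-fold below WT there. Entries with the upstream exon made up 65.4% of Tpm1 in WT, 90.7% in SclKO and 71.9% in the library labelled Gata12KO.

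Other exons of Tpm1 are chosen in turn. Among entries with the upstream first exon, an exon 964 bases on (1 entry, the choice known from smooth muscle) and another 1302 bases on (5 entries) exclude each other. The former stood at 10.7 FPKM (9.44 to 12.0) in WT, 34.4 (32.1 to 36.7) in SclKO and 4.85 (4.18 to 5.52) in the library labelled Gata12KO, which is 3.21 times WT in SclKO and 7.09-fold below SclKO in the library labelled Gata12KO. The latter summed to 69.4, 202 and 62.0 FPKM in the same libraries. Entries with the most distal 3′ end made up 63.5%, 64.5% and 52.6% of Tpm1, and those with the most proximal end, the form known from striated muscle, 35.3%, 34.3% and 45.3%.

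**Figure D2:**
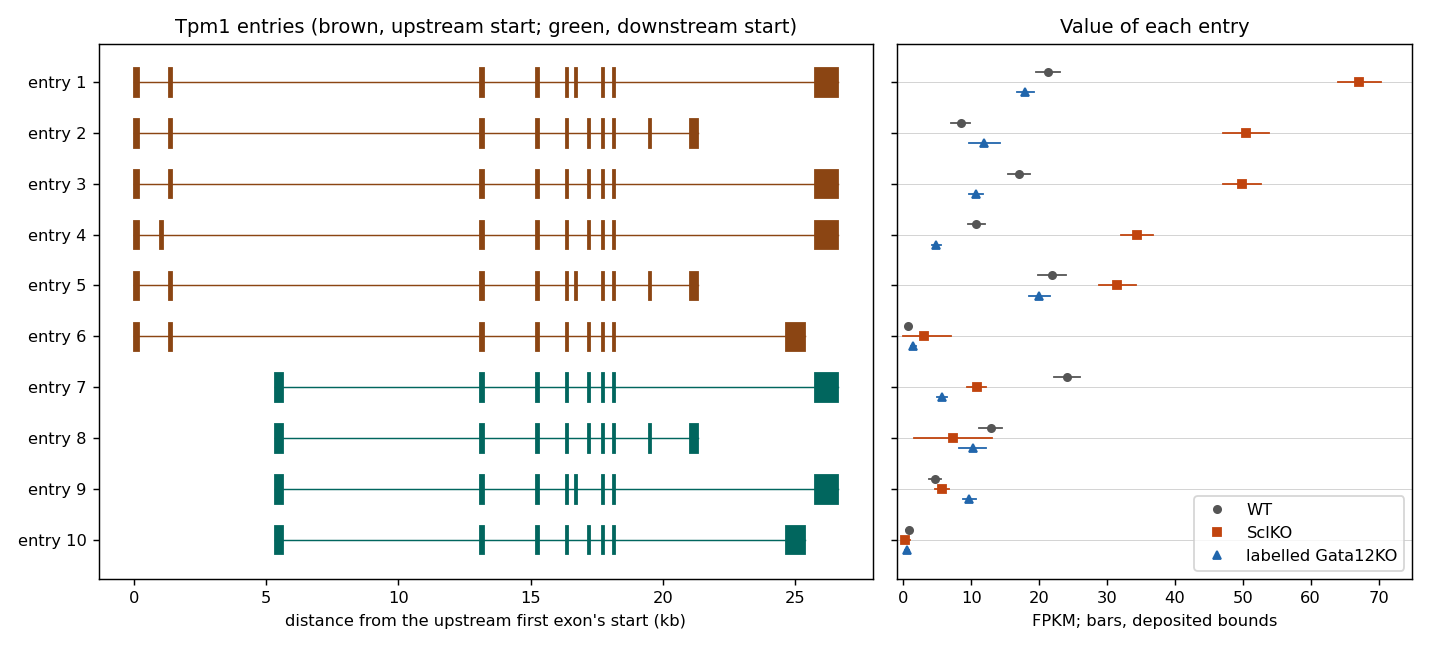
Left, exons of the 10 Tpm1 entries by distance from the upstream start in kb, brown for entries with the upstream first exon and green for those with the downstream one. Right, FPKM of each entry in the 3 libraries with the deposited bounds, where each of the first 5 entries is highest in SclKO and entry 7, which starts downstream, is highest in WT.

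The 2 sarcomeric actins gave no call as reported. Actc1, cardiac actin, stood at 1.79 FPKM (1.35 to 2.22) in WT, 0.920 (0.590 to 1.25) in SclKO and 0.577 (0.383 to 0.770) in the library labelled Gata12KO. WT was the highest library, with bounds apart from both others, and the log2 ratios against it were -0.54 and -0.82, the latter passing 2-fold with a pseudocount of 0.1 (-1.48) and with rescaling over 300 nt (-1.04). Acta1, skeletal actin, stood at 1.18, 1.80 and 0.850 FPKM, with bounds apart only between SclKO and the library labelled Gata12KO. Both sarcomeric actins lay near the 1 FPKM limit, and both have a CArG box in the promoter window. Of 50-base stretches of Acta1, 2.22% occur in other genes.

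Of the 7 thick filament genes only the 2 atrial light chains were expressed. Myl7, the atrial regulatory light chain, stood at 2.11 FPKM (1.30 to 2.93) in WT, 2.53 (1.57 to 3.49) in SclKO and 4.56 (3.64 to 5.49) in the library labelled Gata12KO. That library was the highest, with bounds apart from both others, at a log2 ratio of 0.84 against WT. It passed 2-fold against WT with a pseudocount of 0.1 (1.08), under TPM (1.46), with rescaling over transcripts of 300 nt or longer (1.30) and with the length trend removed (1.49). Myl4, the atrial essential light chain, stood at 1.13, 1.29 and 0.472 FPKM in WT, SclKO and the library labelled Gata12KO, and was called in no comparison. By value Myl7 was at its highest and Myl4 at its lowest in the library labelled Gata12KO. The bounds of Myl4 there (0.243 to 0.701) overlapped those in WT (0.681 to 1.59) and were apart only from those in SclKO, and its log2 ratio against WT went from -0.54 to -0.0051 with the length trend removed.

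The other 5 thick filament genes were under 1 FPKM in every library. Myh6 and Myh7, the cardiac myosin heavy chains, stood at 0.0597, 0.0334 and 0.149 FPKM and at 0.119, 0.124 and 0.351 FPKM in WT, SclKO and the library labelled Gata12KO. For Myh7 these are 22, 20 and 104 implied reads, and its bounds in the last library (0.282 to 0.420) lay above those of the other two. The pair shares 22.6% of 50-base stretches of sequence with each other, so a read could be counted to either. Myl3, the ventricular essential light chain, stood at 0.444, 0.152 and 0.408 FPKM. Myl2, the ventricular regulatory light chain, was listed at 0 in all 3 libraries, and Mybpc3, cardiac myosin binding protein C, at 0 in WT and SclKO and at 0.00997 in the library labelled Gata12KO.

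None of the 9 genes of the Z-disc, the M-line and the giant proteins was expressed, and their summed FPKM was 1.29 in WT, 1.33 in SclKO and 0.945 in the library labelled Gata12KO. Ttn, titin, the spring that spans the sarcomere from Z-disc to M-line, stood at 0.0255, 0.0338 and 0.0364 FPKM. Actn2, the sarcomeric actinin of the Z-disc, stood at 0.0452, 0.0889 and 0.0353 FPKM. Of the rest, Ankrd1, a stress-responsive ankyrin protein of the Z-disc and titin filament, was highest in WT and SclKO but not in the library labelled Gata12KO, at 0.801 FPKM (0.548 to 1.05) in WT, 0.406 (0.215 to 0.598) in SclKO and 0.0622 (0.00656 to 0.118) in the library labelled Gata12KO. Its bounds in the last library lay below those of both others, on 5 implied reads against 40 in WT and 18 in SclKO. Ldb3, a Z-disc scaffold, stood at 0.121, 0.210 and 0.390 FPKM, and Myom1, a crosslinker of the M-line, at 0.117, 0.325 and 0.143. Nebl, Tcap and Csrp3 were at most 0.229 FPKM in any library, and Smpx was listed at 0 in all 3.

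**Figure D3:**
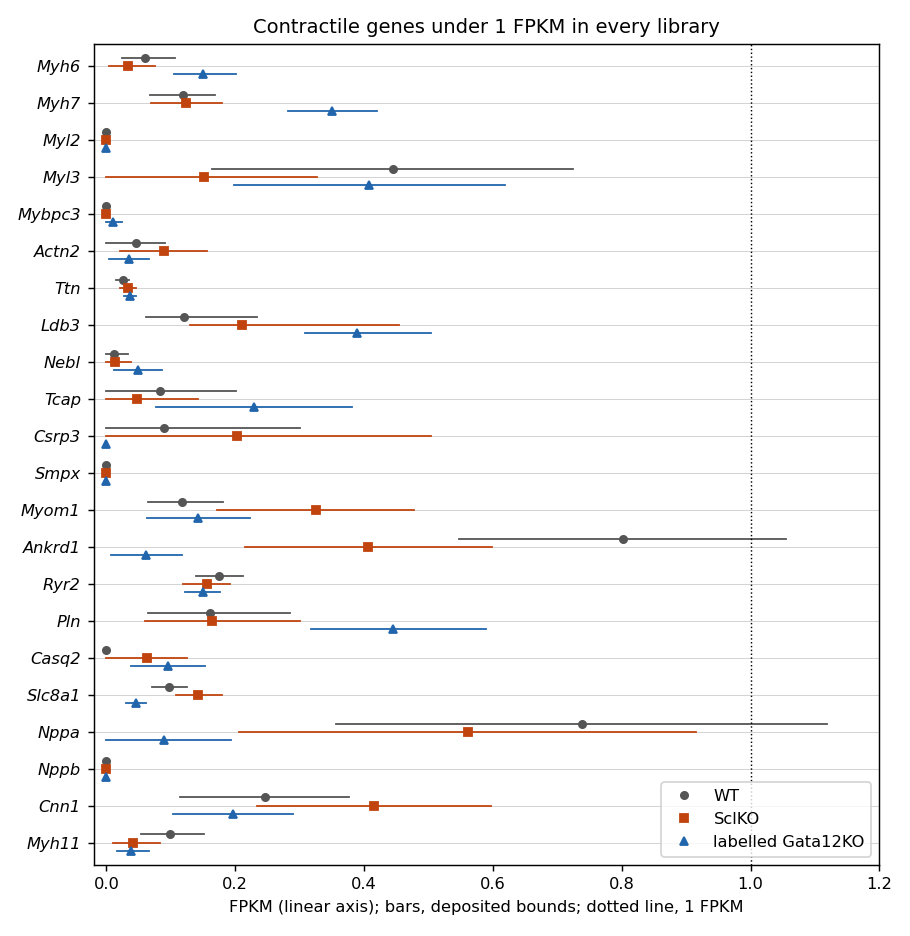
FPKM (linear axis) of the 22 contractile genes under 1 FPKM in every library, 1 symbol for each library, with the deposited bounds as bars and 1 FPKM as a dotted line. Myl2, Smpx and Nppb are at 0 throughout, while Myh7, Pln and Ldb3 are highest in the library labelled Gata12KO and Ankrd1 and Nppa are lowest in it.

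Of the 5 genes of calcium handling only Atp2a2 was expressed. It encodes the SERCA2 pump, which returns calcium to the reticulum in muscle and other cells alike, and stood at 22.1 FPKM (14.7 to 28.0) in WT, 28.1 (7.66 to 37.8) in SclKO and 31.3 (9.12 to 41.2) in the library labelled Gata12KO. The bounds overlapped in every pair and were wide, with the value split over 3 entries. The coding entry with the highest value stood at 6.64, 19.6 and 21.6 FPKM with lower bounds of 0, and the entry annotated as noncoding at 15.1 (14.4 to 15.7), 7.40 (6.85 to 7.96) and 9.01 FPKM (8.56 to 9.46). Only the sum is therefore used. Ryr2, the calcium release channel of the heart, stood at 0.175, 0.155 and 0.149 FPKM with overlapping bounds. Pln, which restrains SERCA2 in the heart, stood at 0.161, 0.164 and 0.445 FPKM, highest in the library labelled Gata12KO with bounds of 0.318 to 0.590 there. Casq2, the calcium store of the reticulum, and Slc8a1, the sodium and calcium exchanger, were at most 0.142 FPKM in any library.

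Cox7a1, the form of a mitochondrial cytochrome oxidase subunit typical of heart and skeletal muscle (chromosome 7, 30969190 to 30971049, forward strand), was the only contractile gene of the list called lower in SclKO. It stood at 27.1 FPKM (22.7 to 31.4) in WT, 6.07 (3.81 to 8.32) in SclKO and 18.7 (16.0 to 21.5) in the library labelled Gata12KO. SclKO was lowest, 4.46-fold below WT (2.73 to 8.23) and 3.08-fold below the library labelled Gata12KO (1.92 to 5.62). The library labelled Gata12KO was 1.45-fold below WT (1.06 to 1.97), with bounds apart but no call. That log2 ratio went from -0.51 to 0.29 with the length trend removed. The transcript is 366 nt long and the values rest on 155, 29 and 187 implied reads, yet both calls were kept under all 7 alternatives that could end a call. The natriuretic peptides gave no such level, with Nppa, the atrial peptide, at 0.738, 0.561 and 0.0901 FPKM and Nppb at 0 in all 3 libraries.

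Of the 6 smooth muscle genes 4 were expressed, and each of these was at its lowest in the library labelled Gata12KO. Myl9 and Tagln were under 1 FPKM there and passed the limit only through WT and SclKO, which favours low ratios in the library labelled Gata12KO. The median log2 ratio of the 4 genes in that library was -1.34 against WT and -1.55 against SclKO, and stayed negative under TPM, at -0.71 and -0.97. Acta2, smooth muscle actin (chromosome 19, 34315581 to 34329826, reverse strand), stood at 42.1 FPKM (40.3 to 43.9) in WT, 55.1 (52.8 to 57.3) in SclKO and 11.7 (10.9 to 12.5) in the library labelled Gata12KO. It was 3.60-fold lower there than in WT (3.23 to 4.02) and 4.71-fold lower than in SclKO (4.24 to 5.24), and both calls were kept under all 7 alternatives that could end a call. Myl9, the regulatory light chain of smooth muscle myosin (chromosome 2, 156601200 to 156607393, forward strand), stood at 8.57 FPKM (7.47 to 9.67) in WT, 4.96 (4.07 to 5.85) in SclKO and 0.911 (0.630 to 1.19) in the library labelled Gata12KO. That library was 9.40-fold below WT (6.26 to 15.3), the widest fold among the 18 calls, and 5.44-fold below SclKO (3.41 to 9.28). The latter call was lost with a pseudocount of 5 (-0.75).

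Des, desmin, the intermediate filament of all muscle types (chromosome 1, 75356919 to 75364290, forward strand), stood at 13.2 FPKM (12.3 to 14.2) in WT, 19.6 (18.4 to 20.8) in SclKO and 6.50 (5.99 to 7.01) in the library labelled Gata12KO. The order was SclKO, WT, labelled Gata12KO with bounds apart in every pair. Only the 3.02-fold difference between SclKO and the library labelled Gata12KO (2.63 to 3.48) was called, and under TPM it was not (-0.73). Against WT the log2 ratio in that library was -0.93. The remaining smooth muscle genes of the list stood lower. Tagln, transgelin or SM22, stood at 1.44, 1.37 and 0.691 FPKM, Cnn1, smooth muscle calponin, at 0.246, 0.415 and 0.196, and Myh11, the smooth muscle myosin heavy chain, at 0.0979, 0.0415 and 0.0381.

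**Figure D4:**
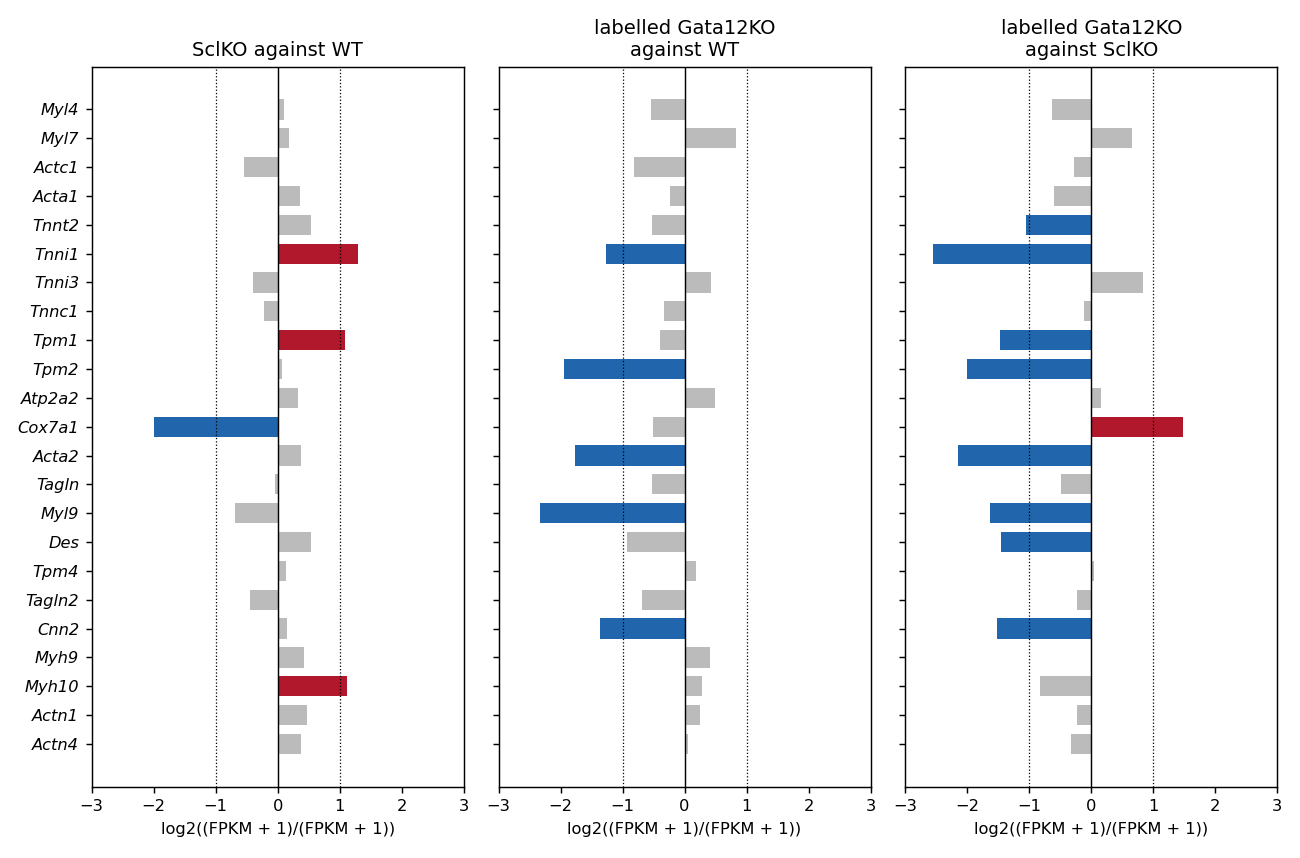
Bars give log2((FPKM + 1)/(FPKM + 1)) of the 23 expressed contractile genes in the 3 comparisons, red where called higher, blue where called lower and grey where not called, with dotted lines at 2-fold. The 5 genes lower in the library labelled Gata12KO than in WT are also lower in it than in SclKO, a pair of comparisons that share that library.

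Non-muscle genes were all 7 expressed, between 19.2 and 222 FPKM. Myh10, the non-muscle myosin heavy chain IIB (chromosome 11, 68505417 to 68630126, forward strand), stood at 42.3 FPKM (41.5 to 43.2) in WT, 92.7 (91.4 to 94.0) in SclKO and 51.6 (50.9 to 52.3) in the library labelled Gata12KO. SclKO was 2.19-fold higher than WT (2.12 to 2.27), a call that was lost under TPM (0.99). Its relative Myh9, the heavy chain IIA, stood at 56.4, 75.6 and 75.3 FPKM and was called in no comparison as reported, though under TPM it was higher in the library labelled Gata12KO than in WT (1.10). Myh10 stood at 0.751 times the FPKM of Myh9 (0.723 to 0.780) in WT, 1.23 times (1.19 to 1.26) in SclKO and 0.685 times (0.667 to 0.703) in the library labelled Gata12KO. In SclKO alone the IIB chain thus exceeded the IIA chain.

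Cnn2, the calponin of non-muscle cells (chromosome 10, 79451345 to 79458145, forward strand), stood at 51.2 FPKM (49.2 to 53.2) in WT, 57.0 (54.7 to 59.2) in SclKO and 19.2 (18.3 to 20.2) in the library labelled Gata12KO. It was 2.66-fold lower there than in WT (2.43 to 2.92) and 2.96-fold lower than in SclKO (2.71 to 3.24). Both calls were lost under TPM, at -0.70 and -0.73, where the median gene was shifted up by 0.60 and 0.72. Tagln2, the widely expressed relative of transgelin, stood at 222, 162 and 137 FPKM and was not called. Actn1 and Actn4, the actinins that crosslink actin outside muscle, stood at 26.8, 37.7 and 32.0 FPKM and at 21.7, 28.5 and 22.6 FPKM, also without a call.

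Ratios within a library set each muscle gene beside its non-muscle relative. Actn1 stood at 594, 424 and 908 times the FPKM of the sarcomeric Actn2 in WT, SclKO and the library labelled Gata12KO, on few reads of Actn2. Tagln2 stood at 154, 118 and 199 times Tagln, and Cnn2 at 208, 137 and 97.8 times Cnn1, with overlapping bounds between all libraries for both pairs. Acta2 stood at 23.6 times Actc1 (18.1 to 32.5) in WT, 59.8 times (42.3 to 97.1) in SclKO and 20.3 times (14.2 to 32.5) in the library labelled Gata12KO. SclKO alone stood apart in this ratio of smooth muscle to cardiac actin. Actc1 was under 1 FPKM in SclKO (0.920) and in the library labelled Gata12KO (0.577).

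Over all 23 expressed contractile genes the median log2 ratio was 0.18 in SclKO against WT, -0.51 in the library labelled Gata12KO against WT and -0.49 in it against SclKO, beside medians of -0.03, -0.08 and -0.06 over all expressed genes. Of the 23 genes, all reached 1 FPKM in WT, 22 in SclKO and 18 in the library labelled Gata12KO. Genes that passed the limit only through other libraries favour low ratios in the library labelled Gata12KO. Over the 8 thin filament genes, all of them expressed, the median was 0.22, -0.46 and -0.83. The second of these medians turned to 0.07 under TPM. Of the 8 genes, Actc1 and Acta1 were under 1 FPKM in the library labelled Gata12KO. Over the 4 expressed smooth muscle genes the median was 0.17, -1.34 and -1.55, with Myl9 and Tagln expressed only through WT and SclKO. Over the 7 expressed non-muscle genes the median was 0.38, 0.19 and -0.24, of which the last turned to 0.57 under TPM. TPM itself shifted the median of all expressed genes by -0.11, 0.60 and 0.72 in the 3 comparisons. Entries under 300 nt held 66.7% of summed FPKM in WT, 72.4% in SclKO and 56.5% in the library labelled Gata12KO. Rescaling to the sum over transcripts of 300 nt or longer shifted it by 0.13, 0.28 and 0.15. The share of lower genes among all calls depended on scaling as well. In SclKO against WT it was 66.7% as reported and 51.7% with rescaling over 300 nt. In the library labelled Gata12KO against WT it was 83.0% as reported, 71.4% by medians of ratios, 52.7% with the length trend removed, 40.0% with rescaling over 300 nt and 8.05% under TPM, where the contractile genes went from 0 higher and 5 lower to 3 higher and 3 lower. Under TPM 11.6% of all expressed genes were higher and 1.02% lower in that comparison. The 3 higher are 13.0% of the 23 contractile genes, near the share of all genes. Against SclKO the share of lower genes among all calls was 52.6% as reported, 40.7% with rescaling over 300 nt and 5.31% under TPM, where the contractile genes went from 1 higher and 8 lower to 3 higher and 4 lower. Under TPM 18.8% of all expressed genes were higher and 1.05% lower there, so the 3 higher (13.0%) are below the share of all genes.

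Calls were recomputed under 10 alternatives. By construction 3 of these could not end a call (a pseudocount of 0.1, no minimum FPKM and the 1.5-fold limit), and under the other 7, 9 of the 18 calls of contractile genes were kept throughout. Only 5 alternatives could turn a direction (the 4 scalings and the entry with the highest mean), and all 18 calls had the same direction in these 5. The 9 calls kept are Tnni1 in SclKO against WT and in the library labelled Gata12KO against SclKO, both calls of Cox7a1, both of Tpm2, both of Acta2, and Myl9 in the library labelled Gata12KO against WT.

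**Figure D5:**
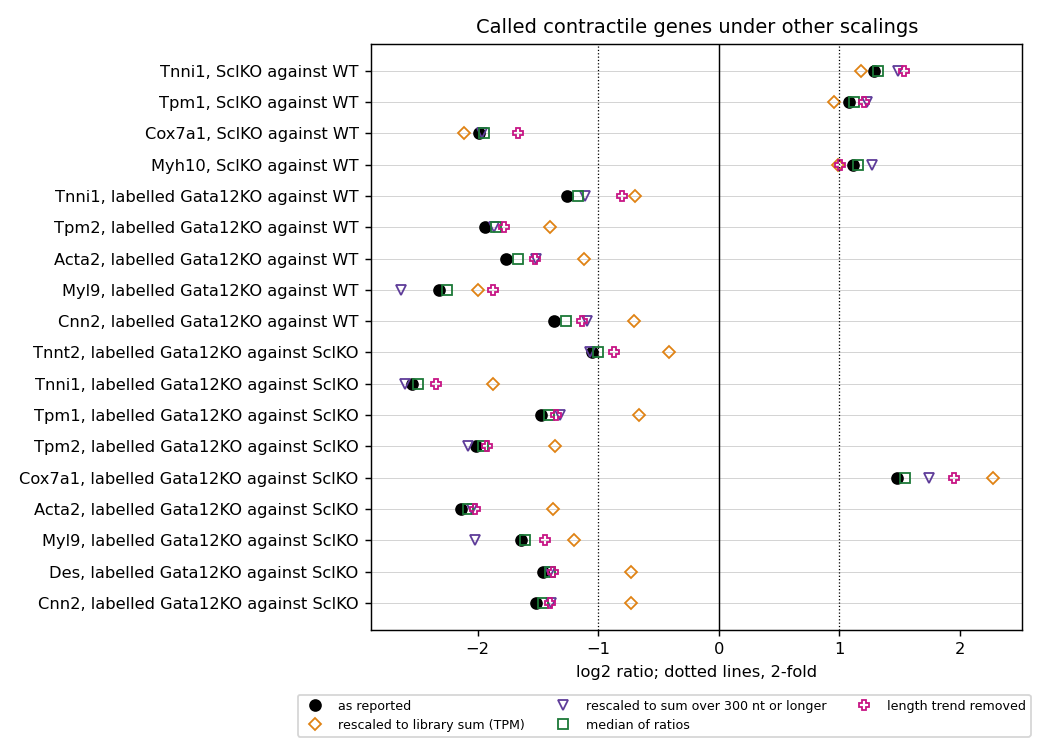
Log2 ratios of the 18 calls as reported (black) and under 4 other scalings (open symbols), with dotted lines at 2-fold. The TPM values (diamonds) lie to the right of the reported ones in both comparisons of the library labelled Gata12KO, and no call crosses 0.

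Further sarcomere and striated muscle genes, 63 in all, were mostly low, with 52 under 1 FPKM in every library. Of the 11 expressed, 1 was higher and 2 were lower in SclKO than in WT. These were Tnnt3, fast skeletal troponin T (1.29 FPKM in WT, 5.46 in SclKO), Pdlim5, a Z-disc and cytoskeletal adaptor (10.1 and 3.96), and Tmod1, which caps the pointed end of thin filaments (8.08 and 3.21). In the library labelled Gata12KO against WT none was higher and Tmod1 was lower, at 1.62 FPKM. Against SclKO that library had 2 higher, Pdlim5 at 11.3 FPKM and Trim54 at 1.53, and 1 lower, Hrc, a calcium-binding protein of the reticulum, at 0.193 against 1.43 FPKM. Median log2 ratios over the 11 genes were 0.11, -0.04 and -0.57 in the 3 comparisons. Of the 11, 7 reached 1 FPKM in WT, 10 in SclKO and 7 in the library labelled Gata12KO.

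The list of serum response factor, actin and actomyosin control, 46 genes with 38 expressed, held 0 calls in SclKO against WT and 0 in the library labelled Gata12KO against WT. In that library against SclKO, Smtn, smoothelin, was higher (19.7 FPKM in SclKO, 44.8 in the library labelled Gata12KO). Lower there were Csrp2, a LIM protein of smooth muscle (304 and 79.8), and Ppp1r14a, an inhibitor of myosin phosphatase (23.8 and 7.93). Median log2 ratios over the 38 genes were 0.03, -0.01 and -0.17. Srf, serum response factor itself, stood at 12.6 FPKM (11.9 to 13.2) in WT, 9.26 (8.68 to 9.84) in SclKO and 6.76 (6.39 to 7.13) in the library labelled Gata12KO, with bounds apart in every pair and no call. Its partner Myocd, myocardin, was under 1 FPKM in every library, and Mrtfa and Mrtfb lay between 3.37 and 4.17 FPKM.

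Markers of other cells moved between the libraries in the same comparisons. Of 12 markers of mesenchyme and pericytes, 9 were expressed, with sums of 73.1 FPKM in WT, 116 in SclKO and 35.5 in the library labelled Gata12KO. Of these 2 were higher in SclKO than in WT, Col3a1 and Pdgfrb, and 3 were lower in the library labelled Gata12KO than in WT, Col1a1, Col1a2 and Rgs5. In that library against SclKO 7 of the 9 were lower. Against WT, 7 of the 9 had a negative log2 ratio in that library and 2, Pdgfrb and Lum, a positive one. The sums have the order SclKO, WT, labelled Gata12KO. By value, so do the called genes Tnnt2, Tnni1, Tpm1, Tpm2, Acta2, Des and Cnn2, with bounds of Tpm2 overlapping between SclKO and WT. The called genes Myl9, Cox7a1 and Myh10 do not have this order. The part of such cells in the contractile genes was not tested.

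The 15 endothelial markers summed to 1187 FPKM in WT, 579 in SclKO and 1161 in the library labelled Gata12KO, with 8 lower and 0 higher in SclKO than in WT. In the library labelled Gata12KO 2 were higher than in WT, Kdr (42.1 FPKM in WT, 96.3 there) and Flt1 (8.72 and 19.6), and 0 were lower. Of the 15, 9 had a positive and 6 a negative log2 ratio against WT in that library. Ramp2, for example, stood at 474 FPKM in WT and 312 there, so the similar sums do not mean unchanged markers. The 12 blood markers summed to 218, 7.51 and 34.9 FPKM. They include Itga2b (CD41), for which the sorted cells were negative, at 22.8, 0.333 and 17.6 FPKM. The 10 markers of endoderm and epithelium summed to 95.7, 143 and 47.5 FPKM. Most of each sum came from Krt8 (40.8, 77.5 and 17.1) and Krt18 (45.2, 59.1 and 18.1). Both keratins were called lower in the library labelled Gata12KO than in either other library. Against SclKO, 1 other marker of this list was called higher there, so the sums describe the keratins and not the list. The 10 cardiomyocyte markers, all of them contractile genes of the list, summed to 9.58, 11.6 and 10.9 FPKM, with 3 expressed (Tnnt2, Tnni3 and Myl7) and Myl2 at 0 throughout. The 10 skeletal muscle markers summed to 0.424, 0.246 and 0.247 FPKM, with none expressed, and the 9 markers of undifferentiated stem cells to 41.5, 14.7 and 20.8 FPKM. The part of any of these cells in the contractile genes was not tested.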

How the data were processed

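RNA of 3 libraries, 1 for each genotype, was read from the deposited transcript tables, whose values are FPKM with confidence bounds written by Cufflinks, per the file headers (the source column). The submitters' processing notes list Cufflinks 2.0.1, TopHat2 2.0.4, Cuffdiff and both hg19 and mm9 without a role. The annotation version and the use of strand are not given in the sources used here. Overlapping antisense transcripts may therefore share reads with a gene. Coordinates are those of the files, on mm9. Each file lists 30123 RefSeq entries. Of 29646 accessions, 29063 were named by the RefSeq table given with the data (GRCm38.p6), 173 by GENCODE and 410 by neither. A set of 134 entries with conflicting names was left out. FPKM and bounds were summed per gene, which gave 23397 genes.

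Because there is 1 library in a group, genes were called by size, as the report defines, with a pseudocount of 1 FPKM, which understates the ratio of low genes. Folds are ratios of FPKM, with bounds from the deposited bounds, which hold no spread between replicates. Every expressed contractile gene is named, with the defining sarcomere genes below 1 FPKM, and of each other list at most 4 called genes for a comparison, except where a whole set of calls is named. The genes and lists were chosen with earlier results of these data known. Shared 50-base stretches were counted in GENCODE M21 transcripts. Alternatives were pseudocounts of 0.1 and 5, no minimum and a minimum of 5 FPKM, a 1.5-fold limit, 4 scalings and the entry with the highest mean. Python 3.11.15, numpy 2.4.6, pandas 2.3.3, statsmodels 0.14.6 and matplotlib 3.10.9 were used.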

Additional observations from a re-analysis of the deposited data

How the results depend on the processing

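No paired analysis was possible because each genotype has 1 library, and for the same reason no library could be left out. Contractile genes higher in the library labelled Gata12KO than in WT numbered 0 as reported, 1 with a pseudocount of 0.1, a 1.5-fold limit, rescaling over transcripts of 300 nt or longer, the length trend removed or the entry with the highest mean FPKM, and 3 under TPM. Of all expressed genes, 0.767% were higher as reported, 2.07% with a pseudocount of 0.1 and 4.77% with the 1.5-fold limit. That share was 4.18% with the rescaling over 300 nt, 1.35% with the length trend removed, 1.61% by the highest entry and 11.6% under TPM. With the rescaling over 300 nt, 31 contractile genes reached 1 FPKM. Contractile genes lower in that library than in WT numbered 5 as reported, 8 with the 1.5-fold limit or the rescaling over 300 nt, 7 with a pseudocount of 0.1, 4 with a pseudocount of 5 or the length trend removed, and 3 under TPM. Of all expressed genes, 3.75% were lower as reported, 14% with the 1.5-fold limit, 2.79% with the rescaling over 300 nt and 6.44% with a pseudocount of 0.1. That share was 1.43% with a pseudocount of 5, 1.51% with the length trend removed and 1.02% under TPM. Against SclKO, contractile genes higher in that library numbered 1 as reported, 2 with a pseudocount of 0.1 or the rescaling over 300 nt, and 3 with the 1.5-fold limit, TPM or the length trend removed, and those lower 8 as reported, 11 with the 1.5-fold limit, 9 with a pseudocount of 0.1 or the rescaling over 300 nt, 7 with the length trend removed, 6 with a pseudocount of 5 and 4 under TPM. Of all expressed genes, 3.38% were higher and 3.75% lower as reported, and 7.86% and 11.3% with the 1.5-fold limit. These shares were 5.37% and 6.23% with a pseudocount of 0.1 and 6.36% and 4.36% with the rescaling over 300 nt. They were 3.93% and 2.92% with the length trend removed, 1.19% and 1.45% with a pseudocount of 5, and 18.8% and 1.05% under TPM. In SclKO against WT, contractile genes lower numbered 1 as reported and 2 with the 1.5-fold limit, and those higher 3 as reported, 4 with the entry with the highest mean FPKM and 1 under TPM. Of all expressed genes, 4.24% were lower as reported and 11.3% with the 1.5-fold limit. The share higher was 2.12% as reported, 3.06% by the highest entry and 1.66% under TPM. The alternatives not named beside a count of contractile genes gave the reported count. TPM moves these counts by construction, since it shifts the median gene. Taking only the entry with the highest mean FPKM turned Tnnt2 in the library labelled Gata12KO against WT from -0.53 to 1.92, because the estimate placed its WT value on another entry. Of 690 values of single genes under alternatives, 649 kept their side of the limit, 27 newly passed it, 13 no longer passed it and 1, that of Tnnt2, passed it with the opposite sign. Among the 649, 22 changed sign without a call in either setting. Depth limits the 22 genes under 1 FPKM, where a few reads decide a ratio.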
